A study of Comephorus dybowskii and Comephorus baikalensis and Batrachocottus nikolskii with 4 samples.

Results

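Skeletal muscle RNA of 2 bottom-living sculpins of Lake Baikal, Batrachocottus nikolskii and Batrachocottus multiradiatus, was compared library against library. Their 2 libraries are among the 4 of the series, the others coming from the open-water golomyankas Comephorus dybowski and Comephorus baicalensis. Each species is represented by 1 library made from the pooled muscle RNA of 15 individuals according to the sample labels. The study's own text gives other pool sizes, so the number of fish behind each library is uncertain. The fish were untreated sexually mature adults taken from the lake by trawl, and neither their sex nor the makeup of each pool by catch site is given. With 1 pool a species there is no measure of the spread within a species, so every value below compares 2 pools, no test of species is possible and no p-value is given.

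The members are all 10189 Trinity gene identifiers of the unnormalized benthic tables, out of 15221 identifiers listed for the series, plus the identifiers of the normalized tables, 657 with protein titles and 135 without. An identifier is a label of a de novo assembly, and it was listed for Batrachocottus only where both libraries lay above about 1 CPM (counts scaled to a library total of 1000000). The series asks how muscle transcription relates to habitat depth. The study describes B. nikolskii as a deep-water benthic fish and B. multiradiatus as one that ranges over more depths.

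Fish trunk muscle is mostly fast white fibres. Its mRNA is dominated by the sarcomere (actin and myosin filaments and their regulators), by calcium buffers such as parvalbumin and by enzymes that keep ATP at hand, among them creatine kinase. A piece of muscle also holds blood, connective tissue, nerve endings, fat and, where skin clings to it, epidermis. In bulk RNA, fewer cells of a type and less RNA per cell cannot be told apart.

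The libraries were of similar depth, with 54508410 read estimates in B. nikolskii and 59156409 in B. multiradiatus. Their composition differed more than their depth. The 10 most abundant identifiers held 37.9% of the estimates in B. nikolskii against 44.6% in B. multiradiatus, and the top 100 held 70.7% and 79.7%. A share of 50% of the reads fell on 23 identifiers in B. nikolskii and on 13 in B. multiradiatus. The median identifier stood 1.47-fold higher in B. nikolskii on plain CPM (median log2 difference 0.56, B. nikolskii minus B. multiradiatus). Scaling by TMM, which assumes that most genes are level, removed 0.57 of this on the log2 scale and left a median of -0.02. The library sizes behind the authors' normalized values removed 0.37 and left 0.18. Small differences therefore have no fixed sign here, and small differences below are values on the scale named, not directions.

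The most abundant transcripts were largely the same in both libraries, with titles of muscle proteins among them. Of the 10 most abundant identifiers in each library, 9 were the same, and 76 of the top 100. Nucleoside diphosphate kinase A 2, which passes phosphate from ATP to other nucleotides, led both lists through DN21071_c4_g1, at 85971 CPM in B. nikolskii and 84999 CPM in B. multiradiatus (plain CPM). The second identifier with this title, DN199_c2_g1, was at 68196 and 60133 CPM, and a further one, DN0_c5_g1, at 18865 and 31170 CPM. Parvalbumin beta, the soluble calcium buffer that speeds relaxation (DN1094_c0_g4), was at 51924 and 53427 CPM. These levels are not per transcript length, so they rank shares of reads and not of transcripts. An identifier with mixed titles for muscle actin and 3 other proteins (DN15_c0_g1) was at 14786 CPM in B. nikolskii and 29952 CPM in B. multiradiatus. One titled protein-glutamine gamma-glutamyltransferase K and a TRIM16-like protein (DN269_c0_g1), counted below with epidermis, was at 36197 and 62082 CPM. Also in the top 10 of both were DN9241_c7_g1 and DN3831_c1_g1, which have no title in the annotation rows used here.

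Creatine kinase, which rebuilds ATP from phosphocreatine, was split over identifiers. One mixed identifier that includes muscle creatine kinase (DN30_c0_g1) was at 28048 CPM in B. nikolskii and 12724 CPM in B. multiradiatus, a log2 difference of 1.14 on plain CPM, 0.77 as deposited and 0.57 with TMM. Another (DN5_c0_g1) was at 19855 and 29930 CPM, a log2 difference of -0.59 on plain CPM, -0.96 as deposited and -1.17 with TMM. The exception among the leading transcripts was DN5_c0_g4, which has no protein title in the part of the annotation used here. It held 3.25% of all estimates in B. multiradiatus (32518 CPM) and 0.00707% in B. nikolskii (70.7 CPM), a 460-fold difference.

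**Figure D1:**
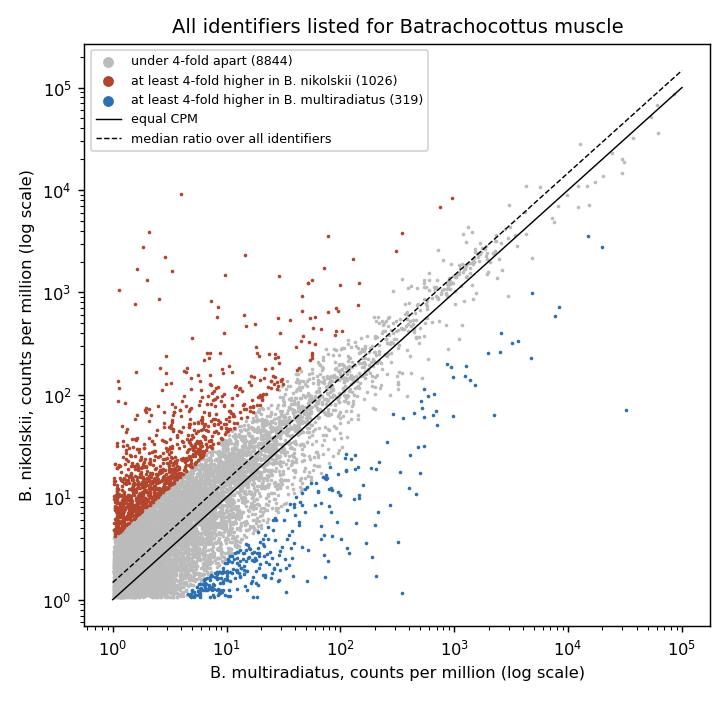
Plain CPM of all 10189 identifiers listed for Batrachocottus, B. multiradiatus on the x axis and B. nikolskii on the y axis (both log scales), 1 point an identifier. The cloud lies along the dashed line of the median ratio, 1.47-fold above equal CPM, with 1026 identifiers past 4-fold toward B. nikolskii (red) and 319 toward B. multiradiatus (blue), and the empty margins below about 1 CPM come from how the tables were made.

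Over all 10189 identifiers the profiles resembled each other, with a Pearson r of 0.825 on log2(CPM + 1), a description across identifiers that are not independent. On plain CPM, 1026 identifiers (10.1%) stood at least 4-fold higher in B. nikolskii and 319 (3.13%) stood so in B. multiradiatus. That imbalance depended on the scaling. With TMM the counts were 559 (5.49%) and 584 (5.73%), with 6713 identifiers (65.9%) within 2-fold. At 16-fold, 123 and 36 identifiers on plain CPM became 65 and 71 with TMM. On the log2 scale and relative to the median, 5% of identifiers lay below -2.12 and 5% above 2.10.

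The share of identifiers 4-fold apart did not fall steadily with level. Relative to the median ratio it was 11.4% of the 3603 identifiers between 2 and 5 CPM, 17.1% between 5 and 10 CPM, 17.0% between 10 and 30 CPM and 16.8% between 30 and 100 CPM (level as the geometric mean of both libraries). It was 16% of the 382 identifiers between 100 and 1000 CPM and 11.6% of the 121 above that. Below 2 CPM it was 0.598%, because an identifier under about 1 CPM in either library is not in the table. At the top the split leaned to one side. Of the 121 identifiers above 1000 CPM, 3 were past 4-fold (at least 4-fold higher) toward B. nikolskii and 11 toward B. multiradiatus relative to the median, and 3 and 10 on plain CPM.

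A set of 4755 identifiers was also listed for Comephorus, and the other 5434 only for Batrachocottus. The share 4-fold apart between the benthic pools was 14.6% in the first set and 12% in the second on plain CPM, and 12.2% and 10.3% relative to the median. The shared set was also more abundant, with a median level of 6.64 CPM against 2.75 CPM. The pelagic libraries were placed by their mean on the log2 scale, here on plain CPM. Among shared identifiers at least 4-fold higher in B. nikolskii, this mean was nearer to B. multiradiatus for 313 of 534. Of those at least 4-fold higher in B. multiradiatus, it was nearer to B. multiradiatus for 87 of 158. The normalized tables hold another set, selected by the authors and without the limit of about 1 CPM in each library. They gave the opposite majority for identifiers at least 4-fold higher in B. multiradiatus. There the pelagic mean was nearer to B. nikolskii for 67 and to B. multiradiatus for 37. For normalized identifiers at least 4-fold higher in B. nikolskii, it was nearer to B. multiradiatus for 100 and to B. nikolskii for 35. Many of these values are low. Both pelagic libraries were under 10 CPM for 43 of the 104 higher in B. multiradiatus and 76 of the 135 higher in B. nikolskii. The lower benthic library was under 10 CPM for 64 and 100 of them.

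The identifiers with normalized values are those the authors selected as differing when all 4 species were compared, so the counts among them describe a set selected on these same libraries. Their values are CPM of TMM-adjusted library sizes, differences are given as log2(CPM + 1), and past 4-fold means at least 2 on that scale. At this threshold B. nikolskii was the higher pool for 135 identifiers (17.0%) and B. multiradiatus for 104 (13.1%), while 390 lay within 2-fold. The median difference was 0.05, with 407 identifiers higher in B. nikolskii and 384 in the other pool at any size. Counts in the lists below are to be read against these shares, and no list was tested against the rest. At 64-fold the counts were 20 and 9. On plain CPM the 4-fold counts were 154 and 93, and with TMM of the 2 benthic libraries they were 124 and 111. Of the 239 identifiers 4-fold apart, 207 were above about 1 CPM in both pools and 32 were not.

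Of the 657 identifiers with titles, 321 carried 1 protein and 336 several. The annotation was read in part, so an identifier with 1 title here may have others in the rest. Because the species were assembled apart and the names were then joined, an identifier with several titles may hold unrelated transcripts, and its value cannot be assigned to any one of its proteins. The share 4-fold apart was 29.3% among identifiers with 1 title, 28.3% among those with several and 37.0% among the 135 without a title. Examples below have 1 title unless others are named. Intervals of folds are 95% exact binomial ones on the read estimates and cover counting error only, not differences among fish or pools.

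The largest log2 difference under a single title was at DN1520_c3_g2, titled for mitochondrial cytochrome b, the core of respiratory complex III. This identifier was at 3342 CPM in B. nikolskii and 0.572 CPM in B. multiradiatus, a 5843-fold difference (interval 4113 to 8392). The pelagic libraries were as low as B. multiradiatus, at 0.311 CPM in C. dybowski and 1.91 CPM in C. baicalensis. B. nikolskii thus stood alone among the 4 libraries at this identifier, the only one in the normalized table with that title. Copies of cytochrome b outside that table are not counted, so these values are not the level of the gene.

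**Figure D2:**
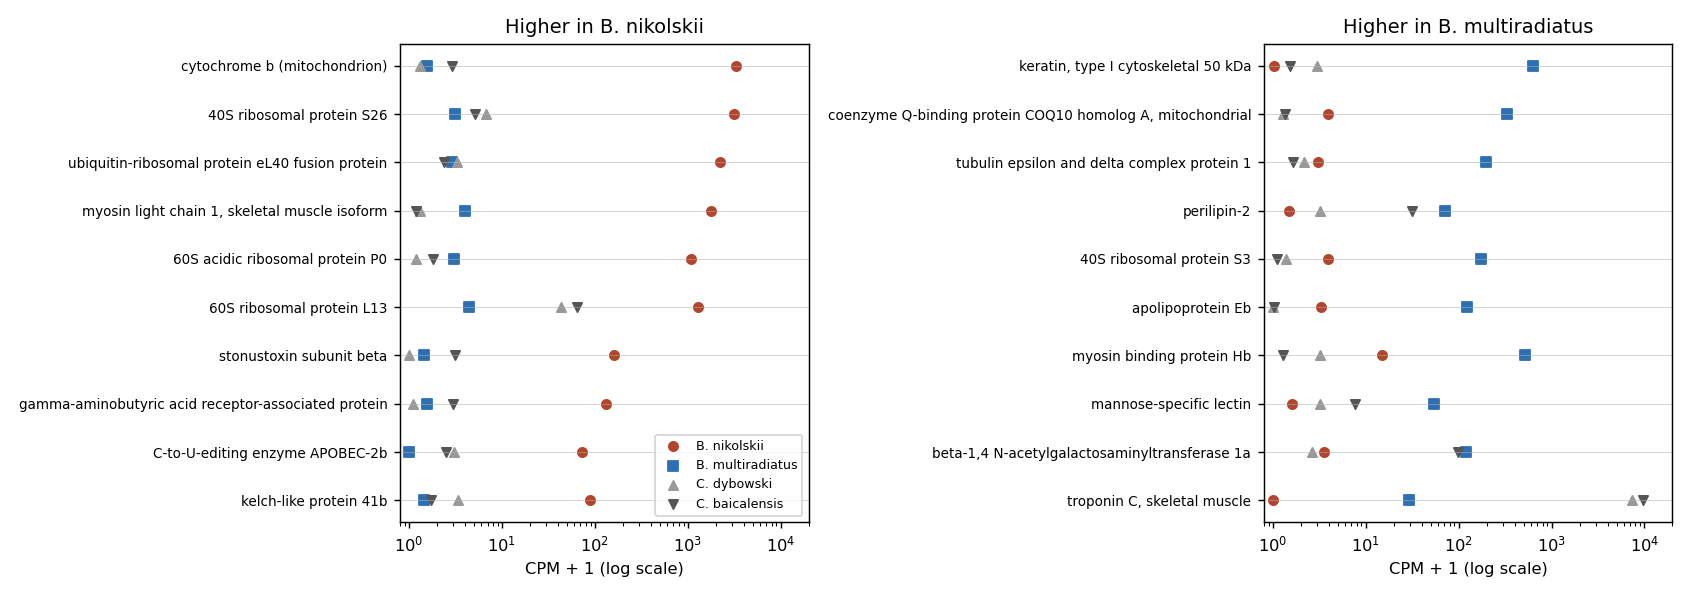
The 10 identifiers with 1 protein title that differ most in each direction, with CPM + 1 on a log x axis and 1 symbol for each of the 4 libraries. On the left B. nikolskii (red circles) lies between 72.1 and 3342 CPM with B. multiradiatus (blue squares) under 4 CPM, and on the right B. multiradiatus lies between 28.3 and 635 CPM with B. nikolskii at or under 13.8 CPM.

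Subunits of the respiratory chain and ATP synthase, listed together with the adenine nucleotide carrier, had large differences on both sides. Of 52 identifiers, 10 were past 4-fold toward B. nikolskii, 3 toward B. multiradiatus and 29 were within 2-fold, with a median of 0.21 (0.53 on plain CPM and 0.03 with TMM). The first count was 8 with TMM, and the share over the normalized table was 17.0% toward B. nikolskii and 13.1% toward B. multiradiatus. Counting only identifiers whose every title belongs to the list, the numbers were 6 and 2 of 27. Those 27 summed to 5498 CPM in B. nikolskii, 3342 CPM of it cytochrome b, and 969 CPM in B. multiradiatus. Over all 52 the order turned, at 11397 and 24829 CPM. The most abundant was a mixed identifier with ADP/ATP translocase 1, a myosin light chain and another protein (DN9_c0_g1), at 2216 and 20635 CPM. It also counts as thick filament. Cytochrome c oxidase subunit 5A, a nuclear-encoded part of complex IV (DN3521_c0_g3), was at 136 CPM in B. nikolskii and 4.41 CPM in B. multiradiatus. Subunit 6A of the same complex (DN351_c0_g1) was at 604 and 147 CPM. The membrane ring subunit of ATP synthase, titled F(0) complex subunit C1 (DN18905_c0_g1), was at 460 and 8.47 CPM.

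Complex I, the entry point for electrons from NADH, had members on both sides. Its beta subcomplex subunit 9 (DN24_c0_g2) was at 57.2 CPM in B. nikolskii and 4.01 CPM in B. multiradiatus, and beta subunit 5 (DN2906_c0_g1) at 5.75 and 0.562 CPM. Alpha subunit 6 (DN19_c0_g2) was the other way round, at 1.77 and 20.2 CPM, as was alpha subunit 9 (DN19131_c0_g1), at 1.18 and 17.1 CPM. For both alpha subunits the pelagic libraries were higher still, at 518 and 1554 CPM for the former. A mixed identifier with 5 titles, alpha subunit 6 among them (DN19_c0_g1), held far more reads, at 2275 and 1988 CPM in the benthic pools. COQ10A, a protein that binds coenzyme Q and is needed for its work in the chain, was 113-fold higher in B. multiradiatus (interval 98.7 to 131) through DN2626_c0_g1, at 332 against 2.93 CPM. A second identifier that includes this title (DN846_c0_g1, also collagen type V alpha 2a and a further protein) was at 270 CPM in B. multiradiatus and 456 CPM in B. nikolskii, and over both the sums were 602 and 458 CPM.

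Enzymes that feed the mitochondria were mostly less than 4-fold apart. Of 17 identifiers for pyruvate oxidation, the citrate cycle and the malate-aspartate shuttle, 1 was past 4-fold toward B. nikolskii and 2 toward B. multiradiatus. The shares over the normalized table were 17.0% and 13.1%. With every title in the list the counts were 1 and 0 of 6. Mitochondrial glutamate carrier 1, which brings glutamate into the matrix, was at 146 CPM in B. nikolskii and 2.69 CPM in B. multiradiatus through DN5242_c2_g2. An identifier that it shares with another title (DN3995_c0_g1) was at 21.5 and 98.5 CPM. Cytoplasmic malate dehydrogenase (DN4529_c0_g2) was at 63.1 and 33.0 CPM, less than 4-fold apart.

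Glycolysis and glycogen enzymes had a median above 0, toward B. nikolskii, under all 3 scalings, but almost all of them rest on mixed identifiers. Of 13 identifiers, 11 were higher in B. nikolskii, 5 of them at least 4-fold, and 1 was at least 4-fold higher in B. multiradiatus, with a median of 0.77 (1.14 on plain CPM and 0.57 with TMM). Over the normalized table the share at least 4-fold higher in B. nikolskii was 17.0%, and 407 identifiers against 384 were higher in it at all. Only 2 of the 13 carried glycolytic titles alone, and both were within 2-fold. L-lactate dehydrogenase A chain, which turns pyruvate to lactate in white muscle (DN1236_c0_g1, also tumor susceptibility 101a), was at 984 CPM in B. nikolskii and 54 CPM in B. multiradiatus. An identifier for glyceraldehyde-3-phosphate dehydrogenase, a middle step of glycolysis (DN1290_c0_g2, also smoothelin-like protein 2), was at 1064 and 58.6 CPM. Another with the same enzyme (DN36_c1_g1, also sperm-associated antigen 7 homolog) had the opposite pattern, at 9.84 and 414 CPM. Summed over its 3 identifiers, glyceraldehyde-3-phosphate dehydrogenase was at 1075 and 474 CPM.

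The phosphagen and adenylate enzymes, which buffer ATP during contraction, had the largest share within 2-fold among the lists of at least 20 identifiers. Of 25 identifiers 19 lay within 2-fold. Past 4-fold were 1 toward B. nikolskii and 0 toward B. multiradiatus, beside 17.0% and 13.1% over the table. The median was -0.13, and it was 0.18 on plain CPM and -0.29 with TMM. Muscle creatine kinase, summed over the 7 identifiers that carry it, was at 42674 CPM in B. nikolskii and 52293 CPM in B. multiradiatus. Its single-title identifier DN6_c0_g3 was at 3931 and 7765 CPM. The exception was a minor identifier of nucleoside diphosphate kinase A 2 (DN1027_c0_g1), at 22.1 and 1.76 CPM.

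Thin filament proteins, which switch contraction on with calcium, had 23 of 32 identifiers within 2-fold. Past 4-fold were 3 toward B. nikolskii and 2 toward B. multiradiatus, beside 17.0% and 13.1% over the normalized table. Of the 657 titled identifiers in that table, 330 lay within 2-fold. The thin filament median of -0.29 became 0.03 on plain CPM and -0.47 with TMM. Troponin C, the calcium sensor, held the largest differences, the greatest of them on a mixed identifier (DN191_c0_g2, also tubulin alpha chain and TFIID subunit 13) at 1187 CPM in B. nikolskii and 10.1 CPM in B. multiradiatus. Its single-title identifier DN191_c0_g5 was at 2852 CPM in B. nikolskii and 81.3 CPM in B. multiradiatus, and DN537_c0_g4 at 0 and 28.3 CPM, the latter at 7274 and 9738 CPM in the Comephorus libraries. Against the floor of 3 counts in B. nikolskii (0.0441 CPM), DN537_c0_g4 was at least 641-fold higher in B. multiradiatus. By contrast troponin I of fast muscle, the inhibitory partner (DN640_c0_g3), was at 2431 and 2685 CPM. Skeletal actin alpha 1 (DN15_c0_g2) was at 743 CPM in B. nikolskii and 3063 CPM in B. multiradiatus.

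Thick filament identifiers were past 4-fold toward B. nikolskii for 7 of 30 and toward B. multiradiatus for 5, beside 17.0% and 13.1% over the table, with a median of 0.16 (0.38 on plain CPM and 0.04 with TMM). With thick filament titles alone the counts were 3 and 2 of 9. Myosin light chain 1 of skeletal muscle, which stiffens the myosin neck, was at 1762 CPM in B. nikolskii and 2.98 CPM in B. multiradiatus through DN184_c0_g3. A mixed identifier with the same light chain (DN14_c2_g1, also class E basic helix-loop-helix protein 40) was at 793 and 4994 CPM. Over the 3 identifiers that carry this title the sums were 2557 and 5000 CPM, an order that rests on the mixed identifier. Over the identifiers with this title alone they were 1764 and 6.2 CPM. Myosin binding protein Hb split in a like way. Its identifier DN529_c0_g3 was at 13.8 CPM in B. nikolskii and 519 CPM in B. multiradiatus, and DN529_c0_g2 (also clusterin) at 447 and 29.3 CPM. The M-band protein titled M-protein (DN748_c0_g1) was at 34.4 and 1.36 CPM.

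Z-disc and costamere proteins, which tie the filaments to each other and to the membrane, had 3 of 23 identifiers past 4-fold toward B. nikolskii and 4 toward B. multiradiatus, with a median of -0.56 that stayed below 0 on plain CPM (-0.25) and with TMM (-0.74). Kelch-like protein 41b, a sarcomere assembly factor (DN7011_c1_g4), was at 86.6 CPM in B. nikolskii and 0.461 CPM in B. multiradiatus. Its other identifiers leaned the other way, DN7011_c1_g2 at 56.9 and 89.4 CPM and DN4312_c0_g2 (also SFT2C) at 1.37 and 13.7 CPM, and the sums over all 3 were 145 and 104 CPM. Desmin a, the muscle intermediate filament (DN2501_c1_g3), was at 1.95 and 18.9 CPM. Among calcium handling proteins 2 of 22 were past 4-fold toward B. nikolskii and 1 toward B. multiradiatus. For this list and the Z-disc list, the shares over the normalized table were 17.0% and 13.1%. A mixed identifier that includes the calcium pump SERCA1 and ryanodine receptor 1b (DN34_c0_g2) was at 1874 and 15.0 CPM. The gamma-6 subunit of the voltage-dependent calcium channel (DN388_c0_g1) was at 1.23 and 29.4 CPM.

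Genes of fat handling differed in which members were high. Of 17 identifiers for lipid binding and oxidation, 3 were past 4-fold toward B. nikolskii and 4 toward B. multiradiatus, and 5 were within 2-fold. Over the normalized table the 4-fold shares were 17.0% and 13.1%. At any size 11 of the 17 were higher in B. nikolskii, with a median of 0.63 (1.00 on plain CPM and 0.43 with TMM). Perilipin-2 (DN497_c0_g2), which coats stored fat droplets, was at 70.5 CPM in B. multiradiatus and 0.488 CPM in B. nikolskii, a 144-fold difference (interval 103 to 211). Apolipoprotein Eb, a lipid carrier (DN4239_c0_g3), was at 122 and 2.28 CPM in the same order, and over its 3 identifiers at 126 and 4.31 CPM. This droplet coat protein and this lipid carrier were thus high in the B. multiradiatus pool, unlike most of the list.

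Apolipoprotein A-II, a protein of high-density lipoprotein (DN11993_c1_g1), was at 50.9 CPM in B. nikolskii and 3.49 CPM in B. multiradiatus. G0/G1 switch protein 2, an inhibitor of the lipase that opens lipid droplets in mammals (DN5205_c0_g2), was at 233 and 42.6 CPM. Sterol carrier protein 2 was on a mixed identifier (DN32_c0_g1), at 3108 and 1498 CPM. The heart-type fatty acid-binding protein had sums of 242 and 246 CPM over 2 identifiers. Its single-title identifier DN2825_c0_g1 was at 228 and 147 CPM, and a mixed one (DN1992_c0_g1, also emerin and an uncharacterized protein) at 13.4 and 99.3 CPM.

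The cytosolic ribosome was the largest list and held the widest spread. Of 99 identifiers 58 were within 2-fold, 18 were past 4-fold toward B. nikolskii and 11 toward B. multiradiatus, shares close to those over the whole normalized table. The median was 0.15, and it was 0.47 on plain CPM and -0.05 with TMM. Protein S26 of the small subunit had its largest identifier, DN908_c2_g1, at 3113 CPM in B. nikolskii and 2.14 CPM in B. multiradiatus. The fusion of ubiquitin with ribosomal protein eL40, which supplies both products (DN10642_c1_g3), was at 2239 and 1.91 CPM, and the stalk protein P0 (DN8103_c0_g3) at 1071 and 2.08 CPM. In the other direction, protein S3 (DN5704_c0_g1) was at 2.88 CPM in B. nikolskii and 173 CPM in B. multiradiatus, and S18 (DN10372_c1_g3) at 53.0 and 460 CPM. The order of S3 turned with a second identifier (DN5815_c0_g1), at 745 and 48.0 CPM, and over its 3 identifiers the sums were 755 and 232 CPM. A mixed identifier that includes L19 (DN2590_c0_g1, also a dehydrogenase/reductase) was at 0.447 and 256 CPM, whereas the most abundant L19 identifier (DN1461_c0_g3) was at 1395 and 1172 CPM.

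Some ribosomal proteins had near-equal values on the authors' scale, which plain CPM moves by 0.37 (log2) toward B. nikolskii. Protein S8 (DN348_c0_g2) was at 1511 CPM in B. nikolskii and 1506 CPM in B. multiradiatus, and L21 (DN6974_c0_g1) at 969 and 958 CPM. Their sums over all identifiers with that main title were 1539 and 1545 CPM for S8 and 974 and 964 CPM for L21. Protein L15 shows how an even identifier can have an uneven partner. Its identifier DN26946_c0_g1 was at 738 and 718 CPM, but DN1424_c0_g1 (also S26) was at 40.6 and 732 CPM, and the sum at 779 and 1450 CPM. Translation factors were mixed, with 2 of 24 past 4-fold toward B. nikolskii and 4 toward B. multiradiatus, beside 17.0% and 13.1% over the table. Elongation factor 1-alpha, which brings aminoacyl-tRNA to the ribosome (DN4640_c2_g1), was at 10.6 CPM in B. nikolskii and 164 CPM in B. multiradiatus.

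Identifiers that share a protein were also summed. The main title of an identifier is that of its best annotation match. Of 94 main titles carried by at least 2 identifiers, 42 had an identifier 4-fold apart. After summing, 21 of those were still 4-fold apart and 15 came within 2-fold. Before the 1 CPM is added, a ratio of sums lies between the lowest and highest ratios of its identifiers. A smaller difference than at the most extreme identifier is therefore built in. Over the normalized table summing changed little, with 28.1% of 526 main titles 4-fold apart against 30.2% of identifiers. Main-title sums include mixed identifiers. With 1-title identifiers alone, 20 of 43 titles had an identifier 4-fold apart, 10 stayed so and 9 came within 2-fold. For 14 main titles identifiers were 4-fold apart in both directions, and the sum was within 2-fold for 8 of them. Ribosomal protein L13 shows the pattern. Its identifier DN6944_c2_g1 was at 1292 CPM in B. nikolskii and 3.46 CPM in B. multiradiatus, DN31_c0_g2 at 153 and 1321 CPM, and the sum at 1445 and 1324 CPM. For S26, DN2123_c2_g1 was at 211 and 2615 CPM against the 3113 and 2.14 CPM above, and the sum over identifiers with that main title was 3726 and 2659 CPM. Polyadenylate-binding protein 4, which binds mRNA tails, came to 85.8 and 83.9 CPM.

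Not every protein evened out. Stalk protein P0 stayed at 1072 CPM in B. nikolskii and 2.89 CPM in B. multiradiatus over its 2 identifiers. Counting identifiers with 1 title, troponin C stayed at 2852 and 110 CPM, heat shock protein beta-9 at 81.5 and 529 CPM, and embryonic hemoglobin alpha at 579 and 17.9 CPM. The sums cover the normalized table only, so copies of a protein outside that table are not counted.

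**Figure D3:**
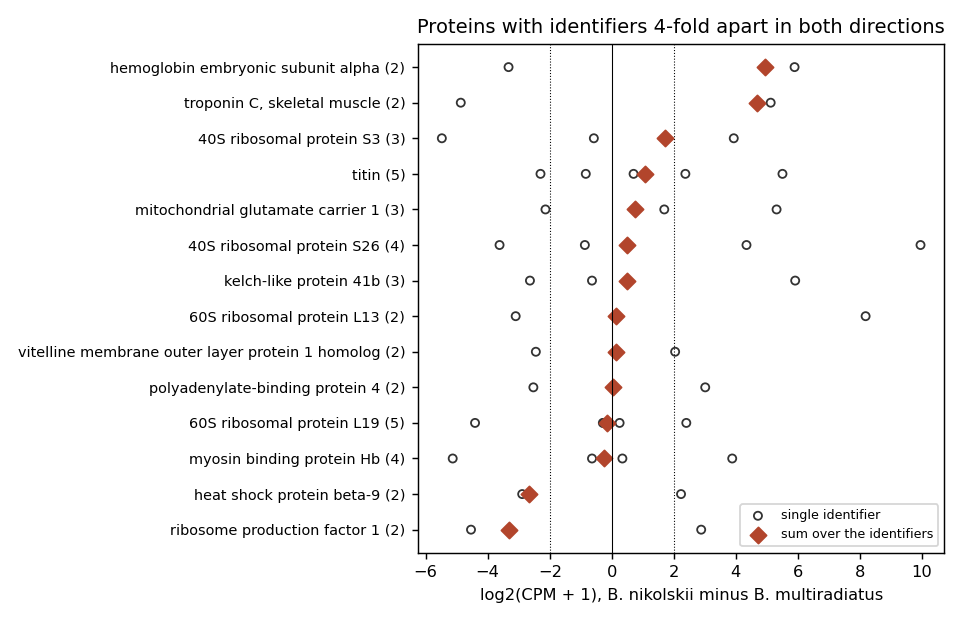
The 14 proteins with identifiers at least 4-fold apart in both directions, by main title with the number of identifiers in brackets. Open circles give each identifier and red diamonds the sum, as log2(CPM + 1) in B. nikolskii minus B. multiradiatus, with dotted lines at 4-fold. The diamonds of 8 proteins, among them L13 and S26, lie within 2-fold although their circles reach past 4-fold on both sides. A sum of opposed identifiers falls between them.

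Protein breakdown and folding gave few clear group differences. Proteasome subunits had 0 of 15 identifiers past 4-fold toward B. nikolskii and 1 toward B. multiradiatus, and the wider ubiquitin and SUMO list had 5 and 3 of 34, beside 17.0% and 13.1% over the table. Only 3 of the 34 carried ubiquitin or SUMO titles alone, with 1 and 0 past 4-fold. F-box only protein 32, known as atrogin-1, the ubiquitin ligase of muscle wasting (DN453_c0_g1), was at 66.7 CPM in B. nikolskii and 0.229 CPM in B. multiradiatus, 291-fold apart (interval 171 to 550). The autophagy protein titled gamma-aminobutyric acid receptor-associated protein (DN3894_c1_g1) was at 131 and 0.543 CPM. Phosducin-like protein 3, a helper of protein folding (DN1966_c0_g2, also ubiquitin-conjugating enzyme E2 R2), was at 67.6 and 0.277 CPM. In the other direction, a mixed identifier with ubiquitin-conjugating enzyme E2 K (DN1346_c0_g1, also ribosome production factor 1) was at 14 and 348 CPM. One with proteasome subunit beta type-4 (DN6826_c0_g1, also the kinase GCN2) was at 1.52 and 9.56 CPM.

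Chaperones had 4 of 20 identifiers past 4-fold toward B. nikolskii and 2 toward B. multiradiatus, beside 17.0% and 13.1% over the table. Their median was below 0 (-0.53, with -0.23 on plain CPM and -0.67 with TMM). For the 7 identifiers with chaperone titles alone it was above 0 (0.99), with 2 past 4-fold on each side. Heat shock protein beta-7, a small chaperone of muscle (DN525_c0_g3), was at 31.4 CPM in B. nikolskii and 0.503 CPM in B. multiradiatus. Its relative beta-9 (DN8_c0_g1) was at 70.4 and 528 CPM. Antioxidant enzymes were higher in B. nikolskii for 9 of 13 identifiers, 1 of them at least 4-fold, with a median of 0.71 (0.99 on plain CPM and 0.59 with TMM). Over all normalized identifiers, 407 against 384 were higher in B. nikolskii and 17.0% were so at least 4-fold. The 6 with antioxidant titles alone went 4 against 2, with 0 past 4-fold. Peroxiredoxin-5, a peroxide-removing enzyme, was at 0.494 CPM in B. nikolskii and 0.558 CPM in B. multiradiatus on its own identifier (DN1396_c1_g3), and at 144 and 58.5 CPM on one shared with nck-associated protein 1 (DN5737_c0_g1).

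Egg and liver identifiers were all 4-fold apart on log2(CPM + 1). Of 10 identifiers, 9 were past 4-fold toward B. nikolskii and 1 toward B. multiradiatus, beside 17.0% and 13.1% over the table. With a pseudocount of 10 the counts were 5 and 0. Their median was 3.56 (3.92 on plain CPM and 3.39 with TMM). Their summed level was 1957 CPM in B. nikolskii, 69.0 CPM in B. multiradiatus and 68.5 and 110 CPM in the pelagic libraries. The yolk precursor vitellogenin-2, a product of the female liver, shared its identifier (DN847_c0_g1) with endosulfine alpha b and was at 1356 CPM in B. nikolskii and 1.68 CPM in B. multiradiatus. Egg coat protein ZP4 (DN1271_c0_g2, also synaptogyrin-2b) was at 113 and 0.069 CPM, and ZP3 (DN5266_c0_g1, also chymotrypsin B) at 26.9 and 0.984 CPM.

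Only 3 of these 10 carried liver or egg titles alone, and they were not all on the same side. C-reactive protein, an acute-phase protein of the liver (DN27781_c0_g1), was at 46 CPM in B. nikolskii and 8.13 CPM in B. multiradiatus, and apolipoprotein A-II is given above. The third, a homolog of vitelline membrane outer layer protein 1 (DN1964_c0_g1), was at 3.15 and 21.7 CPM, and summed with its other identifier at 30.2 and 27.6 CPM. The sex ratio and the RNA of other organs in either pool were not measured, and their part in these values was not tested.

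Keratins, the filament proteins of skin and other epithelia, differed in both directions. Keratin type I of 50 kDa (DN9_c0_g8) was at 635 CPM in B. multiradiatus, 36216 estimated reads, and at 0.021 CPM in B. nikolskii, 1 estimated read, a ratio of 30233 with a counting interval of 7750 to 1705792. Keratin type II 5 (DN3261_c0_g2, also general transcription factor 3C polypeptide 6) was at 178 and 0.764 CPM, and type I 15 (DN9_c0_g5, also a glutamyl-tRNA amidotransferase) at 75.3 and 1.34 CPM. In the other direction, a mixed identifier with 4 titles that includes keratin type I 18 (DN5979_c0_g1) was at 18.6 CPM in B. nikolskii and 1.79 CPM in B. multiradiatus, and keratin 94 (DN1888_c0_g2) at 6.38 and 2.34 CPM. Of 8 epidermal identifiers, 3 were at least 4-fold higher in B. multiradiatus and 1 in B. nikolskii, and 3 of the 8 were higher in B. nikolskii at any size. Over the normalized table the 4-fold shares were 13.1% and 17.0% in that order. The part of skin in the B. multiradiatus pool was not tested. The 3 identifiers with epidermal titles alone summed to 7.45 and 639 CPM, of which keratin type I of 50 kDa held 635 CPM. The sums over all 8 were 29036 and 65278 CPM in the same order, nearly all of it from DN269_c0_g1, titled protein-glutamine gamma-glutamyltransferase K and a TRIM16-like protein.

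Blood, matrix, immune and nerve markers were divided, while the few identifiers of the gut and pancreas list were all higher in B. nikolskii. The part of these tissues in the results above was not tested. Globins had 1 of 9 identifiers at least 4-fold higher on each side, beside 17.0% and 13.1% over the normalized table. Their summed levels were 1096 CPM in B. nikolskii and 734 CPM in B. multiradiatus. Embryonic hemoglobin alpha (DN5443_c0_g1) was at 579 and 8.78 CPM, and a mixed identifier of 3 titles with that globin (DN163_c0_g1) at 107 and 332 CPM, whereas the hemoglobin beta-2 identifier (DN491_c0_g1, with a second title) was at 357 and 351 CPM. The 9 matrix identifiers summed to 1020 and 610 CPM. Among them nidogen-2, a linker of the basement membrane (DN958_c1_g3), was at 93.1 CPM in B. nikolskii, 1.17 CPM in B. multiradiatus and 0 in both pelagic libraries. Collagen type I alpha 1b (DN1439_c0_g2, with a second title) was at 400 and 248 CPM.

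Immune identifiers had 6 of 29 at least 4-fold higher on each side, beside 17.0% and 13.1% over the normalized table. They summed to 10196 CPM in B. nikolskii and 19981 CPM in B. multiradiatus. Most of that sum was granulocyte colony-stimulating factor receptor (DN524_c0_g2), at 8761 and 15269 CPM, while 16 of the 29 were higher in B. nikolskii with a median of 0.53. Mannose-specific lectin, a sugar-binding defence protein (DN57_c0_g1), was at 0.607 CPM in B. nikolskii and 53.2 CPM in B. multiradiatus. An identifier that it shares with the chaperone BiP (DN2251_c0_g1) was the reverse, at 288 and 5.17 CPM. The antibody chain immunoglobulin mu (DN292_c0_g1, also splicing factor RBM22) was at 105 and 3.36 CPM. Of 10 nerve and junction identifiers, summing to 724 and 686 CPM, 2 were 4-fold higher in B. nikolskii and 1 in the other pool. Those 2 include DN1271_c0_g2, already counted above with egg coat protein ZP4. Sodium channel subunit beta-1 was on both sides, with DN1764_c0_g2 at 63.9 and 5.99 CPM and a mixed identifier (DN3487_c0_g1, also lamin-B2 and another protein) at 6.95 and 33.4 CPM. The 3 identifiers of the gut and pancreas list, all with other titles, summed to 361 and 117 CPM. The most abundant (DN1399_c0_g2) joined through carboxypeptidase N, which is not a digestive protease, and was at 221 and 95.3 CPM. All 3 were higher in B. nikolskii, with a median of 2.41 (2.77 on plain CPM and 2.21 with TMM). The 2 with digestive protease titles (DN5266_c0_g1 and DN98_c0_g1) were at least 4-fold higher, the former already counted above with egg coat protein ZP3. For this list and the nerve list, the shares over the normalized table were 17.0% and 13.1%.

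**Figure D4:**
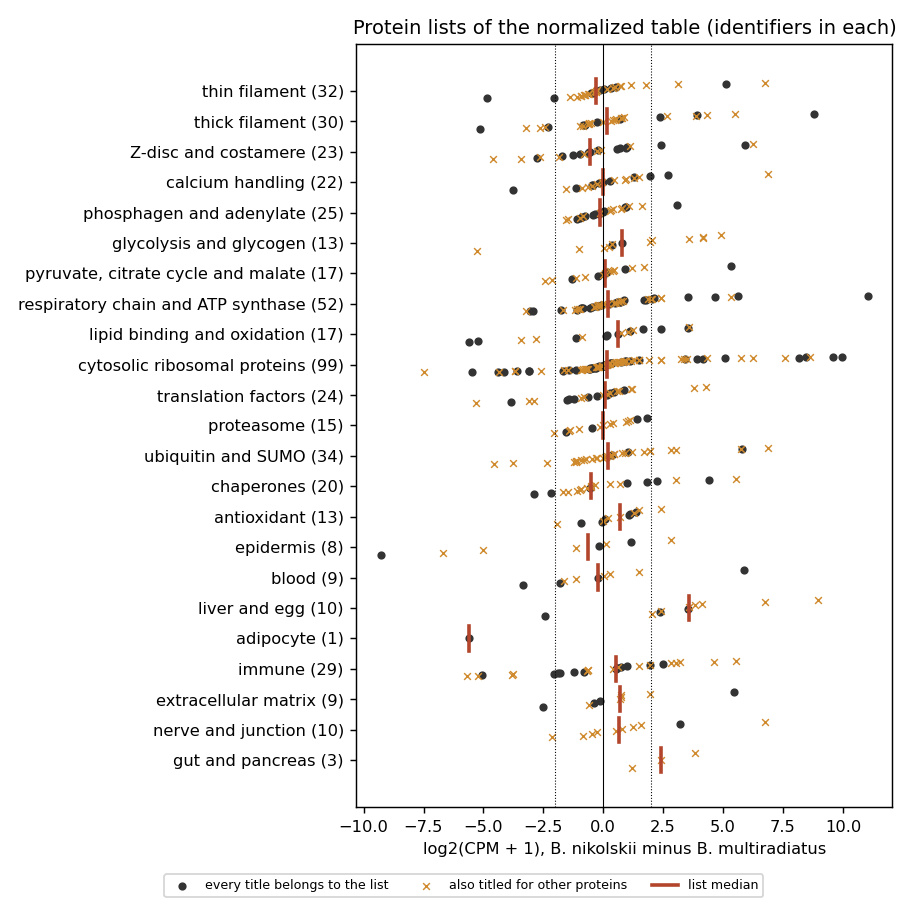
Difference of log2(CPM + 1), B. nikolskii minus B. multiradiatus, for every member of the 23 protein lists, with the number of identifiers in brackets. Black points carry titles of that list alone, orange crosses other titles too, red bars are list medians and dotted lines mark 4-fold. The list medians lie between -0.65 and 0.77 except for liver and egg (3.56), gut and pancreas (2.41) and the single adipocyte identifier (-5.59), and those between -0.29 and 0.21 change sign or fall to within 0.06 of 0 with the scaling.

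Further genes of the 10 largest differences fell outside the lists. In B. nikolskii the muscle protein APOBEC-2b (DN935_c1_g1) was at 72.1 CPM against 0 in B. multiradiatus, at least 1372-fold higher against a floor of 3 counts (0.0526 CPM). Over the 2 identifiers with this main title the sums were 73.3 and 0.544 CPM. The identifier titled stonustoxin subunit beta (DN177_c0_g3), a name taken from a stonefish toxin, was at 158 and 0.450 CPM. In B. multiradiatus a tubulin-associated protein of centrioles, TEDC1 (DN5167_c0_g1), reached 198 CPM against 2.10 CPM, and beta-1,4 N-acetylgalactosaminyltransferase 1a, a ganglioside enzyme (DN77_c1_g1), at 118 against 2.56 CPM. Other genes named in the study differed less. The lipid kinase PIP4K2C (DN3704_c1_g1) was at 538 CPM in B. multiradiatus and 116 CPM in B. nikolskii. Endothelin-converting enzyme 1 (DN1477_c0_g2, also heat shock protein HSP 90-beta and PEA-15) was at 80.8 CPM in B. nikolskii and 103 CPM in B. multiradiatus. The identifier titled tubulin alpha-1A (DN20_c1_g2) was at 111 and 99.9 CPM. Over 3 identifiers with tubulin alpha titles the sums were 1324 and 135 CPM, mostly from the mixed DN191_c0_g2 given above with troponin C.

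Several of the very largest differences cannot be named. The largest in the unnormalized tables toward B. nikolskii was DN251_c2_g1, at 9183 plain CPM against 4.01 CPM, and it was not listed for Comephorus. Toward B. multiradiatus, after DN5_c0_g4, came DN11289_c0_g2, at 345 plain CPM against 1.17 CPM, and DN11289_c0_g1, at 203 against 1.69 CPM. None of these 4 has a protein title in the annotation rows used here.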

How the data were processed

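Poly-A RNA of each pool was sequenced as a non-directional library. The authors trimmed reads with Trimmomatic 0.36 (submitters' processing notes), assembled each species with Trinity, joined the assemblies with CD-HIT, and built counts per gene identifier with Salmon. The unnormalized values are estimated counts rounded to whole numbers, as deposited, listed for a genus only where both libraries exceed about 1 CPM. The normalized values are the authors' CPM of a TMM-adjusted library size (edgeR 4.0.3), recovered from both tables as 1.25 times the table total in B. nikolskii and 0.964 times in B. multiradiatus. A value of 0 there allows up to 0.0441 and 0.0526 CPM (3 counts, counting error only). The study's own edgeR tests assume a dispersion and were not repeated. It also ran quantitative PCR on individual fish for several genes, and those values were not used here.

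Estimates were scaled to CPM of the table total, or by TMM (edgeR 4.0.16) and size factors (DESeq2 1.42.0) in R 4.3.3, without a model fit. Normalized values were compared as log2(CPM + 1). Titles came from 1325 annotation rows of the study, read in part, so no enrichment was computed. An identifier joined a list by any title, so some, such as DN34_c0_g2 (calcium handling and ubiquitin), count in several lists. Members, the 23 lists and the rule for named genes (the largest differences, the extremes of each list, proteins split in both directions and genes named in the study) were chosen with earlier results of these data known. The counting step was tested on simulated data. No replicate could be left out. No transcript sequences were used here.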

Additional observations from a re-analysis of the deposited data

How the results depend on the processing

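No paired analysis was possible because each species has 1 library. Over all listed identifiers, 4-fold counts, B. nikolskii first (1026 and 319 on plain CPM, median log2 difference 0.56) moved with the scaling. They were 559 and 584 with TMM (median -0.02), 569 and 567 with DESeq2 size factors (0.00), 469 and 704 with the upper quartile (-0.20) and 692 and 475 with the authors' library sizes (0.18). The direction of the median and the split of calls therefore rest on the scaling. With a mean of at least 10 CPM the counts were 516 and 170 (median 0.70), with a pseudocount of 1 they were 700 and 218 (0.43), with a pseudocount of 10 they were 190 and 85 (0.14), and among identifiers also listed for Comephorus 534 and 158, with fewer identifiers tested in the first and last. In the normalized table (135 and 104), identifiers with 1 title gave 53 and 41 of 321, and sums by main title 89 and 59 of 526. Pseudocounts of 0.1 and 10, a filter at 10 CPM, plain CPM and, chosen after seeing the data, TMM of the 2 benthic libraries kept both counts within 1.5-fold. Single identifiers were checked for 120 of those named, the largest differences, the extremes of each list and the genes named in the study. Some other identifiers printed above were not among them. Of the 84 checked identifiers past 4-fold, 16 fell short of it with a pseudocount of 10 and 6 on plain CPM. With a pseudocount of 0.1 or TMM 0 fell short, and 0 changed direction. Depth limits values near 0 to about 0.05 CPM.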
